A study of Mus musculus with 6 samples.

Results

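The 43 genes described here are interferon-stimulated genes together with both chains of the type I interferon receptor, taken by symbol from a deposited count table of 55291 gene symbols. All 43 were present, and all 43 were among the 14475 genes that passed the low-count filter. They were read by RNA-seq in ILC1s, the type 1 innate lymphoid cells, and in natural killer (NK) cells, with 3 libraries of each, sorted from MC38 colon carcinoma tumours 14 days after the tumour cells were placed under the skin of wild-type C57/BL6 mice. Both cell types came from the same tumour model, and the labels list no interferon or other agent given to the mice. The labels give neither the gate of the sort nor the mouse behind each library, so errors and p-values describe the spread between these libraries, which may be technical.

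Type I interferons (interferon alpha and beta) bind a receptor of the chains IFNAR1 and IFNAR2, whose kinases activate STAT proteins. STAT2 and IRF9 take part in a complex that binds the interferon-stimulated response element (ISRE) and switches on genes that block virus replication, sense foreign nucleic acids and feed back on the pathway. Interferon gamma, which group 1 lymphocytes themselves secrete, acts through the gamma-activated site (GAS), and many guanylate-binding and immunity-related GTPases answer mainly to it. In NK cells type I interferon is known as a trigger of cytotoxicity and survival.

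The response element is visible in the sequences upstream of these genes. RefSeq promoters on GRCm38.p6, which run from 250 bases before to 50 bases after each gene start, were at hand for 33 of the 43 genes. The letters GAAANNGAAA occurred on either strand in 17 of the 33 (51.5%), against 3.99% of 27025 genes with a promoter in the same table. The letters TTCNNNGAA of the GAS occurred in 11 of the 33 (33.3%), against 9.55% of all genes. For 6 genes whose levels are given further on, the promoter is printed as the 150 bases before the start, with every ISRE match in capitals. Isg15 shows overlapping matches, Bst2 shows 2 of them beside a GAS match, and the others show a single match at differing distances from the start.
Isg15, chr4:156200819-156200968, reverse strand: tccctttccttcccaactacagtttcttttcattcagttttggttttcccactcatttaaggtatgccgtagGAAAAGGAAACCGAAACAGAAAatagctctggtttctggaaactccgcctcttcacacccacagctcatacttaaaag
Bst2, chr8:71537473-71537622, reverse strand: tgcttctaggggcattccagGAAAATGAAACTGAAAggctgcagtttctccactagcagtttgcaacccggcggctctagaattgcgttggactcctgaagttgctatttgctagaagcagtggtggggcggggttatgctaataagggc
Gbp2, chr3:142620513-142620662, forward strand: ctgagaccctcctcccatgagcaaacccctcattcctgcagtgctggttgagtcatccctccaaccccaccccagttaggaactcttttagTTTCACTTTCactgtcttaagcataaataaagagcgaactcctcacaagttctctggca
Rsad2, chr12:26456453-26456602, reverse strand: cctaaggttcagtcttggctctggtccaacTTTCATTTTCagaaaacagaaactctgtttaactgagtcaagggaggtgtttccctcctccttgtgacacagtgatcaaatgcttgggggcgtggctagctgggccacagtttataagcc
Ifit3, chr19:34583379-34583528, forward strand: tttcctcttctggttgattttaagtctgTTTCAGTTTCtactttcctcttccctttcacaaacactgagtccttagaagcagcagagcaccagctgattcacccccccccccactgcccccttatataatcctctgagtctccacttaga
Trim30a, chr7:104465194-104465343, reverse strand: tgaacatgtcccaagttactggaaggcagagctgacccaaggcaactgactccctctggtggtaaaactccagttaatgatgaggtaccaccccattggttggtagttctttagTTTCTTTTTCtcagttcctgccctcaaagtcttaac

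In Isg15 the 3 matches began 78, 72 and 66 bases before the start and ran into each other as a single repeat. In Bst2 they began 130 and 124 bases before the start, in Gbp2 59, in Rsad2 120, in Ifit3 122 and in Trim30a 36. Ifit3 held a second match further upstream, outside the printed stretch. Trim30a has another listed start, and the match seen from it began at base 3 after that start. Whether this is the same site as the printed match was not checked. A match describes letters only and is no evidence of a bound site. Likewise, a miss of these exact letters is no evidence that the element is absent. The 17 genes with the ISRE letters had a median log2 fold change (ILC1 over NK) of 0.40, with 3 below 0, and the 16 without them had -0.067, with 11 below 0. Without ILC1 replicate 3 these medians were 0.20 and -0.41. Among the other tested genes with a promoter, the medians were 0.089 for 393 genes with the letters and 0.077 for 10062 without, close to each other. Of these other genes, 182 with the letters and 4426 without were below 0. By the GAS letters, the interferon genes had medians of 0.13 (11 genes with them) and 0.14 (22 without), with 4 and 10 below 0. None of these differences was tested.

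**Figure D1:**
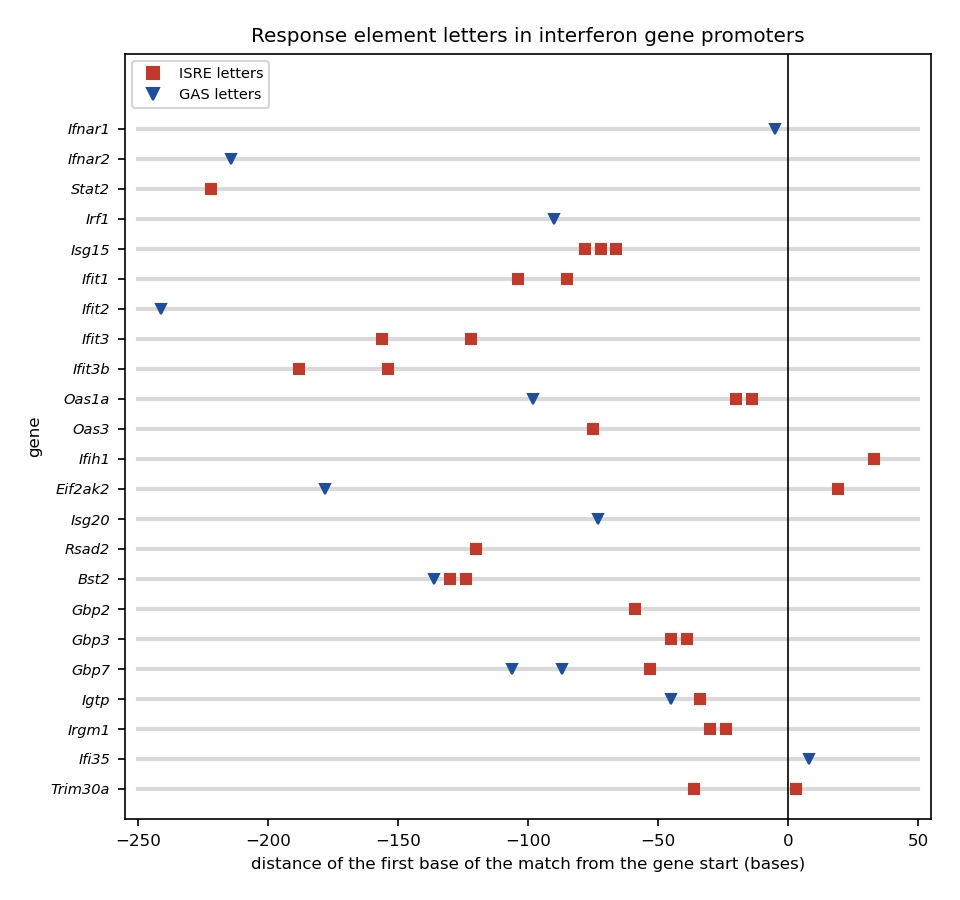
Positions of ISRE and GAS letters in the promoters of the 23 interferon genes that held either, as the distance in bases of the first base of each match from the gene start, with all listed starts of a gene drawn on its line. Most ISRE matches sit in the last 150 bases before the start.

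None of the 43 genes passed the test between ILC1s and NK cells with all 6 libraries, and their median difference was close to that of all genes. With edgeR's quasi-likelihood test 0 of the 43 genes were higher and 0 were lower in ILC1s than in NK cells at a Benjamini-Hochberg adjusted p under 0.05, where 0.076% of all tested genes were called higher and 0.00691% lower. At an unadjusted p under 0.05, 6 of the 43 were higher (6.95% of all genes) and 3 were lower (8.82% of all genes). The 6 were Isg15, Oas2, Oasl2, Bst2, Gbp2 and Ifi27l2a, and the 3 were Gbp4, Ifi47 and Trim30a. DESeq2 called 3 higher (Isg15, Bst2 and Gbp2), where it called 2.94% of all genes, and 3 lower (Gbp4, Ifi47 and Trim30a), where it called 4.03%. At its unadjusted p under 0.05 there were 6 higher (8.51% of all genes) and 3 lower (9.17%). limma-voom called 0 in either direction, where 0.0967% of all genes were higher and 0.0138% lower, with 7 higher and 4 lower at an unadjusted p under 0.05, where 8.2% and 8.53% of all genes stood. The median log2 fold change of the 43 genes was 0.13, beside 0.081 over all tested genes, with 24 genes above 0 (56% of all genes) and 19 below (44%).

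The sign of that median rested on ILC1 replicate 3. This library was the highest of the 6 libraries for 24 of the 43 genes, where it was the highest for 24.8% of all tested genes. For 21 of the 43 it lay at least 1.5-fold above the mean of ILC1 replicates 1 and 2, against 16.7% of all genes, and for 13 at least 2-fold above it, against 9.03%. The 43 genes together took 2368, 2483 and 3622 CPM (counts scaled to a common library size by TMM) in ILC1 replicates 1 to 3, and 2755, 2554 and 2854 CPM in NK replicates 1 to 3. Without ILC1 replicate 3 the median log2 fold change of the 43 was -0.19, beside 0.038 over all genes, and 23 genes were below 0 (47% of all genes). Ifit2, Oas1a, Oas3, Dhx58 and Cmpk2, 5 of the 43, then turned from above to below 0 (7.59% of all genes) and Ifi44, 1 of the 43, the other way (4.67%). In that fit 0 of the 43 passed edgeR's adjusted threshold in either direction, where 0.0729% of all genes were called in each. At an unadjusted p under 0.05, 2 of the 43 were then higher (4.68% of all genes) and 12 lower (9.54%). Without NK replicate 3, 2 of the 43 passed edgeR's adjusted threshold as higher in ILC1s (Bst2 and Ifit3b, where 1.67% of all genes passed) and 0 as lower (where 1.33% passed). At an unadjusted p under 0.05 that fit had 10 higher (16.2% of all genes) and 4 lower (10.4%).

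The same library stood apart in genes of other cells. The 12 macrophage markers summed to 400.4, 296 and 14039 CPM in ILC1 replicates 1 to 3, against 265, 169 and 323 CPM in NK replicates 1 to 3. All 12 were above 0 in ILC1 replicate 3, while Mrc1 was at 0 in NK replicate 2 and Fcgr1 at 0 in NK replicate 1. The 10 fibroblast markers summed to 1860.4, 2613 and 77.02 CPM in the ILC1 libraries, against 14.9, 23.6 and 1520.4 CPM in the NK libraries, which sets NK replicate 3 beside ILC1 replicates 1 and 2. Lum was at 0 in NK replicates 1 and 2, Pdgfra in NK replicate 1 and Fbn1 in NK replicate 2, while all 10 were above 0 in NK replicate 3. The 9 dendritic cell markers summed to 884, 776 and 9469 CPM in ILC1s, against 909, 958 and 705 CPM in NK cells. Most of the 9469 CPM came from H2-Ab1, H2-Aa and Cd74, at 2171, 2223 and 4483 CPM in ILC1 replicate 3. Flt3, Xcr1, Clec9a and Cd209a were also highest in that library, but only at 3.65, 5.85, 2.03 and 1.51 CPM. Zbtb46 was lowest there, at 6.20 CPM. Itgax was highest in NK replicate 2, with 472, 391 and 573 CPM in ILC1s, against 760, 841 and 515 CPM in NK cells. It made up most of the sum of this list in each NK library. The 7 T cell markers summed to 75.1, 73.2 and 208 CPM in ILC1s, against 72.3, 70.2 and 54.4 CPM in NK cells. The 6 markers of plasmacytoid dendritic cells, the main producers of type I interferon, summed to 232, 258 and 210.5 CPM in ILC1s, against 144, 171 and 206 CPM in NK cells, most of it from Bst2, Tcf4 and Runx2. Siglech, another of these markers, had 5, 8 and 0 counts in ILC1 replicates 1 to 3, against 0 in each NK library. Macrophages, dendritic cells and fibroblasts also express interferon-stimulated genes, and the part of such cells in the values given here was not tested. In sorted bulk samples fewer cells of a type and less RNA per cell cannot be told apart. The 6 NK markers summed to 652, 597 and 258 CPM in ILC1s, against 2125, 2156 and 1578 CPM in NK cells. The 6 ILC1 markers summed to 508, 450.2 and 686 CPM in ILC1s, against 119, 111 and 140.1 CPM in NK cells. Both lists thus followed the labels. They were chosen with earlier results of these data known, so this is no independent check of the labels. The 5 markers shared by both cell types summed to 2636, 2483 and 2315 CPM in ILC1s, against 4892, 5345 and 3158 CPM in NK cells.

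**Figure D2:**
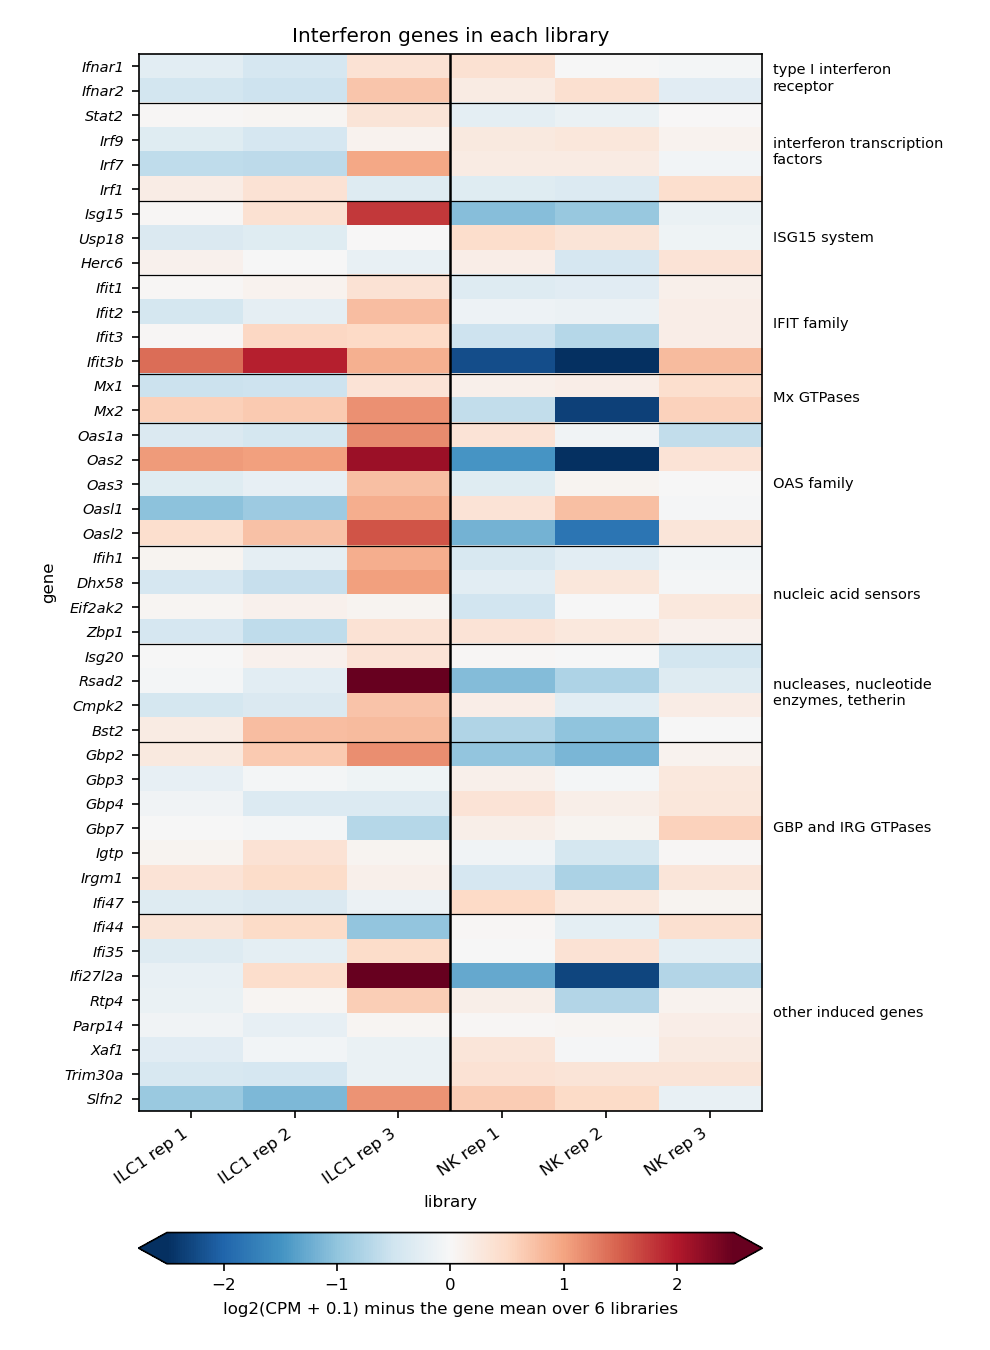
Level of each of the 43 genes in each library, as log2(CPM + 0.1) minus the gene's mean over the 6 libraries, with the ILC1 libraries left of the NK libraries and genes grouped by role. ILC1 replicate 3 is the highest library for 24 of the 43 genes, and a group of genes such as Isg15, Oas2 and Oasl2 is lowest in NK replicates 1 and 2.

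Neither receptor chain passed the test, and for both the spread among ILC1 libraries was wider than the difference between the means. Ifnar1 had 137, 122 and 209 CPM in ILC1 replicates 1 to 3, against 211, 161 and 159 CPM in NK replicates 1 to 3. Ifnar2 had 48.1, 46.3 and 107 CPM in ILC1s, against 76.3, 87.3 and 54.3 CPM in NK cells. For both chains ILC1 replicates 1 and 2 were below every NK library, while ILC1 replicate 3 was among the highest, so the groups overlapped. The log2 fold changes were -0.18 ± 0.25 (SE) for Ifnar1 and -0.11 ± 0.38 for Ifnar2, with edgeR adjusted p of 0.742 and 0.894, and without ILC1 replicate 3 they were -0.46 and -0.63 (edgeR adjusted p of 0.315 and 0.292).

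Of the transcription factors, IRF9 is the DNA-binding part of the complex at the ISRE, IRF7 is an induced factor that amplifies interferon production, and IRF1 answers strongly to interferon gamma. Irf9 had 55.1, 51.01 and 72.3 CPM in ILC1s, against 80.7, 83.3 and 72.6 CPM in NK cells. Every ILC1 library was below every NK library for Irf9, with the closest pair at 72.3 CPM in ILC1 replicate 3 and 72.6 CPM in NK replicate 3. Its log2 fold change was -0.41 ± 0.17 (edgeR adjusted p = 0.317). Stat2 went the other way, with 65.2, 65.9 and 79.8 CPM in ILC1s, against 54.2, 56.5 and 64.04 CPM in NK cells, no overlap and a log2 fold change of 0.27 ± 0.14 (edgeR adjusted p = 0.398). Irf7 had 60.4, 59.8 and 185 CPM in ILC1s, against 108, 109 and 89.4 CPM in NK cells. Its group means were 102 ± 71.9 CPM for ILC1s, against 102 ± 10.9 CPM for NK cells, almost equal, with ILC1 replicate 3 above all NK libraries and the other ILC1 libraries below them. Without that library the log2 fold change of Irf7 was -0.77 (edgeR adjusted p = 0.103). Irf1 had 285, 322 and 202 CPM in ILC1s, against 204, 199.6 and 337 CPM in NK cells. Here ILC1 replicate 3 was the low ILC1 library, and the high libraries were ILC1 replicates 1 and 2 and NK replicate 3, those with the fibroblast genes.

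ISG15 is a ubiquitin-like protein that is attached to other proteins, in mice mainly by the ligase HERC6, and removed by USP18, which also damps signalling at IFNAR2. Isg15 had 21.04, 27.1 and 70.3 CPM in ILC1s, against 9.84, 10.6 and 18.4 CPM in NK cells. Every ILC1 library was above every NK library, with ILC1 replicate 3 far above the rest and NK replicate 3 close to ILC1 replicate 1. The means were 39.5 ± 26.9 CPM for ILC1s, against 12.97 ± 4.76 CPM for NK cells, a 3.04-fold difference with a log2 fold change of 1.60 ± 0.52 and an edgeR adjusted p of 0.269 (DESeq2 adjusted p = 0.0432). It was 0.87 without ILC1 replicate 3 and 0.34 when ILC1 replicates 1 and 2 were set against NK replicate 3 alone. Usp18 had 26.8, 27.7 and 34.7 CPM in ILC1s, against 46.4, 43.3 and 31.8 CPM in NK cells, and so did not follow Isg15. Herc6 lay between 16.8 and 28.7 CPM in all libraries, with log2 fold change -0.084 ± 0.24.

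**Figure D3:**
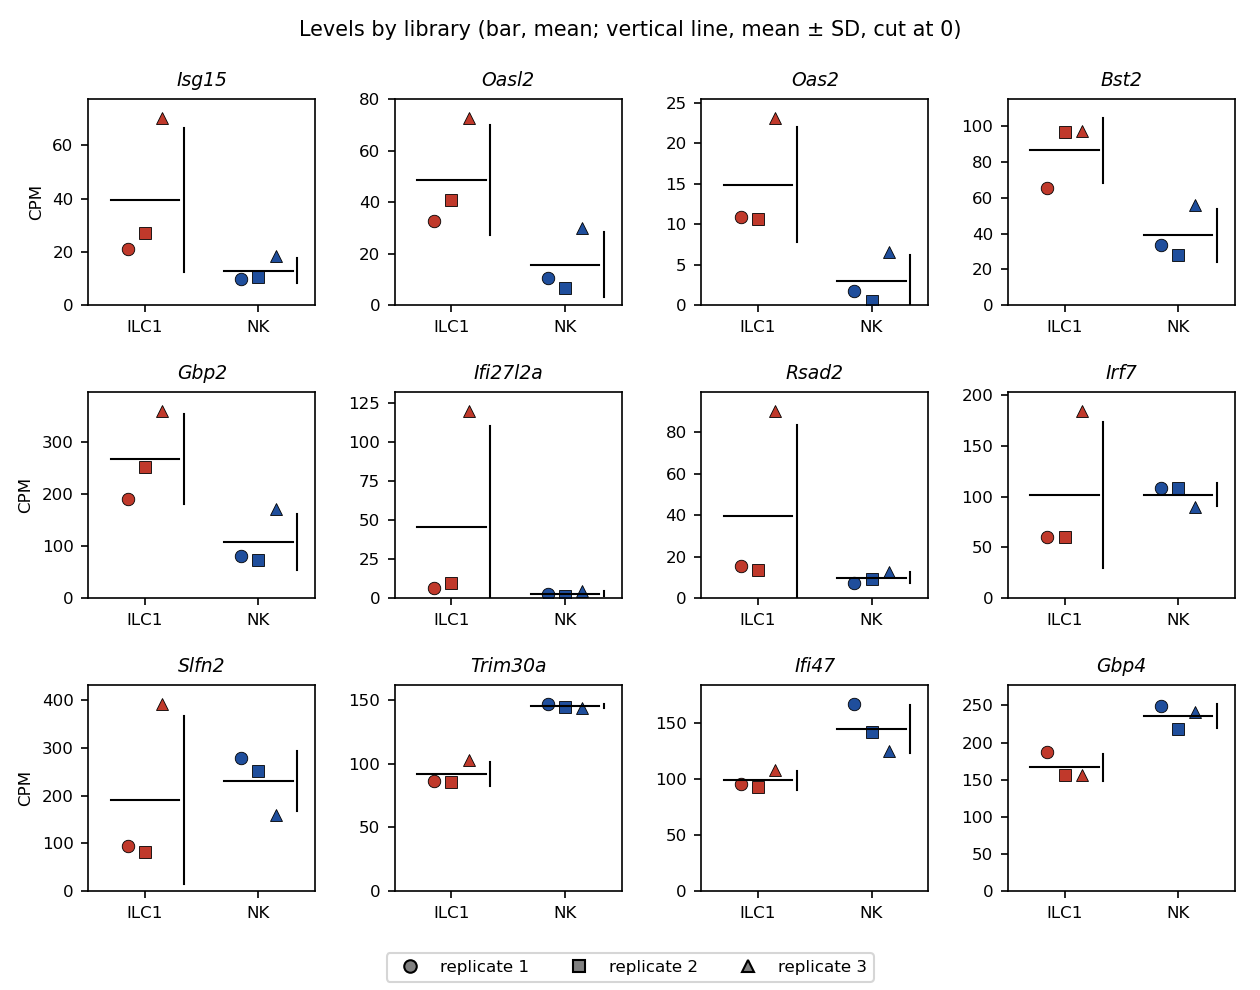
CPM of 12 interferon genes in each ILC1 library (left of each panel) and each NK library (right), with the group mean as a bar and mean ± SD as a line, n = 3 each. Isg15, Rsad2, Ifi27l2a, Irf7 and Slfn2 are led by ILC1 replicate 3, while for Trim30a, Ifi47 and Gbp4 every ILC1 library lies below every NK library.

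The IFIT proteins bind viral RNA ends. All 4 genes had a log2 fold change above 0, from 0.17 for Ifit2 to 2.11 for Ifit3b, with edgeR adjusted p-values from 0.341 to 0.819. Ifit3b had 64, 109 and 43 counts in ILC1 replicates 1 to 3, against 4, 2 and 48 counts in NK replicates 1 to 3. NK replicates 1 and 2 were thus near the 3 counts taken as the limit of detection while NK replicate 3 was close to ILC1 replicate 3. Its close relative Ifit3 had 17.5, 24.5 and 24.3 CPM in ILC1s, against 11.9, 10.3 and 19.2 CPM in NK cells. Of the stretches of 50 bases in Ifit3 transcripts, the read length, 51.2% also occur in Ifit3b, so the division of reads between this pair is uncertain. Ifit1 and Ifit2 ranged from 11.2 to 42.7 CPM and the groups overlapped for both.

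Of the Mx GTPases, Mx1 is known to be damaged by a deletion in most laboratory strains, and Mx2 is annotated as a polymorphic pseudogene. Mx1 had 14.5, 14.6 and 26.8 CPM in ILC1s, against 22.8, 23.6 and 28.2 CPM in NK cells, and a log2 fold change of -0.42 ± 0.29 that became -0.79 without ILC1 replicate 3. Mx2 had 4.95, 5.16 and 7.303 CPM in ILC1s, against 2.098, 0.565 and 4.95 CPM in NK cells, where NK replicate 3 nearly equalled ILC1 replicate 1. The pair therefore had opposite signs without either passing (edgeR adjusted p = 0.528 and 0.492).

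The OAS enzymes make oligoadenylates that activate the nuclease RNase L, while in mice OASL1 holds back IRF7 translation. ILC1 replicate 3 was the highest library for all 5 genes. Oas2 had 10.9, 10.7 and 23.2 CPM in ILC1s, against 1.798, 0.514 and 6.63 CPM in NK cells, with means of 14.9 ± 7.16 CPM for ILC1s, against 2.98 ± 3.22 CPM for NK cells, no overlap, and a log2 fold change of 2.32 ± 0.90 (edgeR adjusted p = 0.314). Oasl2 had 32.6, 40.7 and 72.9 CPM in ILC1s, against 10.6, 6.78 and 30.03 CPM in NK cells, again without overlap (a log2 fold change of 1.62 ± 0.62, adjusted p of 0.309 by edgeR). In both genes NK replicate 3 was several-fold above the other NK libraries, so that the log2 fold change of ILC1 replicates 1 and 2 over NK replicate 3 was 0.66 for Oas2 and 0.25 for Oasl2. NK replicate 3 was also the NK library with 1520.4 CPM of fibroblast markers, whose part in these levels was not tested. Oasl1 ran the other way outside ILC1 replicate 3, with 8.52, 9.26 and 32.8 CPM in ILC1s, against 22.1, 29.4 and 17.1 CPM in NK cells. Its log2 fold change was -0.44 with and -1.37 without that library. Oas1a and Oas3 had log2 fold changes of 0.40 ± 0.52 and 0.25 ± 0.32, which turned to -0.34 and -0.19 without ILC1 replicate 3. Oas1a shares 57.6% of its stretches of 50 bases with Oas1g, so its counts are uncertain too.

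Among the nucleic acid sensors, Ifih1 (MDA5) and Dhx58 (LGP2) belong to the RNA helicase family that detects double-stranded RNA, Eif2ak2 (PKR) shuts down translation on it, and ZBP1 detects Z-form nucleic acids and can start necroptosis. Zbp1 had 71.8, 61.7 and 123 CPM in ILC1s, against 123, 115 and 103 CPM in NK cells, so that the lower pair of ILC1 libraries lay below all NK libraries (log2 fold change -0.41 ± 0.28, and -0.78 without ILC1 replicate 3, edgeR adjusted p = 0.514 and 0.109). Dhx58 had 14.6, 13.2 and 40.1 CPM in ILC1s, against 16.3, 23.8 and 18.9 CPM in NK cells, the same layout. Ifih1 ranged from 14.3 to 35.8 CPM, highest in ILC1 replicate 3. Eif2ak2 varied little among ILC1 libraries, at 31.4, 32.6 and 31.6 CPM, against 21.6, 29.9 and 36.6 CPM in NK cells.

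ISG20 is an exonuclease, viperin (Rsad2) makes a chain-terminating nucleotide with help from its neighbour gene Cmpk2, and tetherin (Bst2) ties budding virus to the cell surface. Rsad2 had 15.5, 13.4 and 90.4 CPM in ILC1s, against 7.44, 9.24 and 12.7 CPM in NK cells. Every ILC1 library was above every NK library, but ILC1 replicate 3 was 6.27 times the mean of the other ILC1 libraries, and the log2 fold change was 2.02 ± 0.80 with it and 0.54 without it (edgeR adjusted p = 0.321 and 0.482). Cmpk2, which lies beside Rsad2 on chromosome 12 (26442746 to 26456452 for Rsad2, 26469204 to 26479837 for Cmpk2), had 12.1, 12.7 and 27.01 CPM in ILC1s, against 18.3, 13.7 and 18.5 CPM in NK cells. Bst2 had 65.4, 96.9 and 97.1 CPM in ILC1s, against 33.5, 27.9 and 55.8 CPM in NK cells. The groups did not overlap, and no ILC1 library stood far from the rest: the means were 86.5 ± 18.2 CPM for ILC1s, against 39.1 ± 14.7 CPM for NK cells, with a log2 fold change of 1.15 ± 0.31 and an edgeR adjusted p of 0.199. DESeq2 gave Bst2 an adjusted p of 0.0122. Without ILC1 replicate 3 the log2 fold change was 1.03, it was 0.54 in the fit with library sets described further on, and against NK replicate 3 alone it was 0.50. Isg20 was within 25.6 to 44.3 CPM in all libraries.

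The 7 GTPases that answer to interferon gamma split in direction, with 3 log2 fold changes above 0 and 4 below. Gbp2, a guanylate-binding protein that attacks pathogen vacuoles, had 191, 253 and 361 CPM in ILC1s, against 81.5, 73.2 and 171 CPM in NK cells, without overlap. The means were 268 ± 86.3 CPM for ILC1s, against 108 ± 54.1 CPM for NK cells, a 2.47-fold difference (a log2 fold change of 1.31 ± 0.40, adjusted p of 0.25 by edgeR, DESeq2 adjusted p = 0.0172), and NK replicate 3 was 2.21 times the mean of the other NK libraries. Its log2 fold change was 0.38 in the fit with library sets and 0.33 for ILC1 replicates 1 and 2 over NK replicate 3. Gbp4 had 187, 156 and 156 CPM in ILC1s, against 249.6, 218 and 241 CPM in NK cells. Each ILC1 library was below each NK library, the means were 166 ± 17.99 CPM for ILC1s, against 236 ± 16.5 CPM for NK cells, and the log2 fold change was -0.50 ± 0.14 (edgeR adjusted p = 0.199, DESeq2 adjusted p = 0.00947). Ifi47, an immunity-related GTPase, had 95.4, 92.9 and 108 CPM in ILC1s, against 168, 142 and 125 CPM in NK cells, likewise apart, with means of 98.8 ± 8.12 CPM for ILC1s, against 145 ± 21.3 CPM for NK cells and a log2 fold change of -0.55 ± 0.15 (edgeR adjusted p = 0.203, DESeq2 adjusted p = 0.0461). Gbp7 had 109, 106 and 66.6 CPM in ILC1s, against 121, 114 and 163 CPM in NK cells, and a log2 fold change of -0.50 ± 0.24 (edgeR adjusted p = 0.375). Gbp3 was also below NK in every ILC1 library, by a narrow margin (log2 fold change -0.24 ± 0.13). Igtp and Irgm1 had log2 fold changes of 0.32 ± 0.17 and 0.54 ± 0.29, and Irgm1 was at 75.0 CPM in NK replicate 3 against 45.6 and 35.1 CPM in the other NK libraries. Parts of Igtp and Gbp7 share 50-base stretches with Irgm2 (11.8%) and a Gbp7 pseudogene (10.5%).

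Trim30a had the smallest unadjusted p of the 43 genes, 0.0015, with every ILC1 library below every NK library. It encodes a TRIM protein known in mice as a brake on Toll-like receptor signalling to NF-kappaB. Its level was 86.7, 85.6 and 103 CPM in ILC1s, against 147, 144 and 144 CPM in NK cells. The gap between the groups exceeded the range within either. The means were 91.6 ± 9.49 CPM for ILC1s, against 145 ± 1.81 CPM for NK cells (SD, n = 3 each), with a log2 fold change of -0.66 ± 0.12, and edgeR's adjusted p of 0.121 did not pass while DESeq2's of 0.000483 did. The log2 fold change stayed between -0.76 and -0.61 with any single library left out. It was -0.74 in the fit with library sets.

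Slfn2, a Schlafen gene that keeps mouse T cells quiescent, had the highest level per length of the 43, at 114 CPM per kilobase of exon in ILC1s and 138 in NK cells. By library it had 94.95, 82.7 and 393 CPM in ILC1s, against 279, 252 and 159 CPM in NK cells. ILC1 replicate 3 exceeded all NK libraries and the other ILC1 libraries were below all of them, so the log2 fold change was -0.28 ± 0.66 with it and -1.38 without it (edgeR adjusted p = 0.85 and 0.123). Ifi27l2a, a small membrane protein gene of the ISG12 family, had 6.34, 9.84 and 119.9 CPM in ILC1s, against 2.897, 1.39 and 4.32 CPM in NK cells. Its means were 45.4 ± 64.6 CPM for ILC1s, against 2.87 ± 1.47 CPM for NK cells, its log2 fold change was 3.98 ± 1.19 (edgeR adjusted p = 0.274), and DESeq2 gave it no adjusted p. It was 1.47 without ILC1 replicate 3, which held 14.8 times the mean of the other ILC1 libraries. Slfn2, Ifi27l2a and Rsad2 were thus highest in the library with 14039 CPM of macrophage markers. It also had 9469 CPM of the dendritic cell list, most of it from H2-Ab1, H2-Aa and Cd74. The part of such other cells in these levels was not tested. Ifi44 was lowest in ILC1 replicate 3, at 5.62 CPM, against 9.45 to 15.8 CPM elsewhere. Xaf1 was below NK in each ILC1 library (log2 fold change -0.35 ± 0.15), and Parp14, Ifi35 and Rtp4 overlapped between groups, with log2 fold changes of -0.16 ± 0.12, -0.05 ± 0.28 and 0.32 ± 0.33, and of -0.23, -0.35 and 0.042 without ILC1 replicate 3. In all 6 libraries together, Gbp2, Bst2 and Irf1 followed Slfn2 in level per length, with 74.8, 69.5 and 65.0 CPM per kilobase, and Ifit3b and Mx2 came last with 1.16 and 1.15.

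Taken by overlap alone, 11 of the 43 genes had every ILC1 library above every NK library (12.5% of all tested genes) and 7 had every ILC1 library below (13.3%). The 7 were Irf9, Gbp3, Gbp4, Gbp7, Ifi47, Xaf1 and Trim30a. With ILC1 replicate 3 left out, 12 were above (27.5% of all genes) and 20 below (19.1%), and the genes below then included both receptor chains, Irf7, Usp18, Ifit2, Mx1, Oasl1, Dhx58, Zbp1, Cmpk2, Ifi35, Parp14 and Slfn2. Against NK replicate 3, the NK library that shares the fibroblast genes, ILC1 replicates 1 and 2 were both above for 14 of the 43 genes (45.2% of all genes) and both below for 26 (35.7%). NK replicate 3 was the highest NK library for 25 of the 43 genes, where it was for 42.7% of all. The libraries fall into 3 sets by these genes of other cells, which are ILC1 replicate 3 by itself, ILC1 replicates 1 and 2 beside NK replicate 3, and the remaining NK pair. With that set as a term, the cell types are compared only within the second set, so the estimate rests on ILC1 replicates 1 and 2 against NK replicate 3. In this fit 0 of the 43 passed edgeR's adjusted threshold, where 0.111% of all genes were higher and 0.117% lower. At an unadjusted p under 0.05, 1 was then higher (Isg20, against 3.63% of all genes) and 11 were lower (against 4.97%), and 16 of the 43 log2 fold changes were above 0 (56.2% of all genes) and 27 below (43.8%). The same contrast fitted to those 3 libraries alone, which takes its spread from the ILC1 pair, called 2 of the 43 higher (Bst2 and Ifi27l2a, where 6.13% of all genes were called) and 11 lower (where 6% were).

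**Figure D4:**
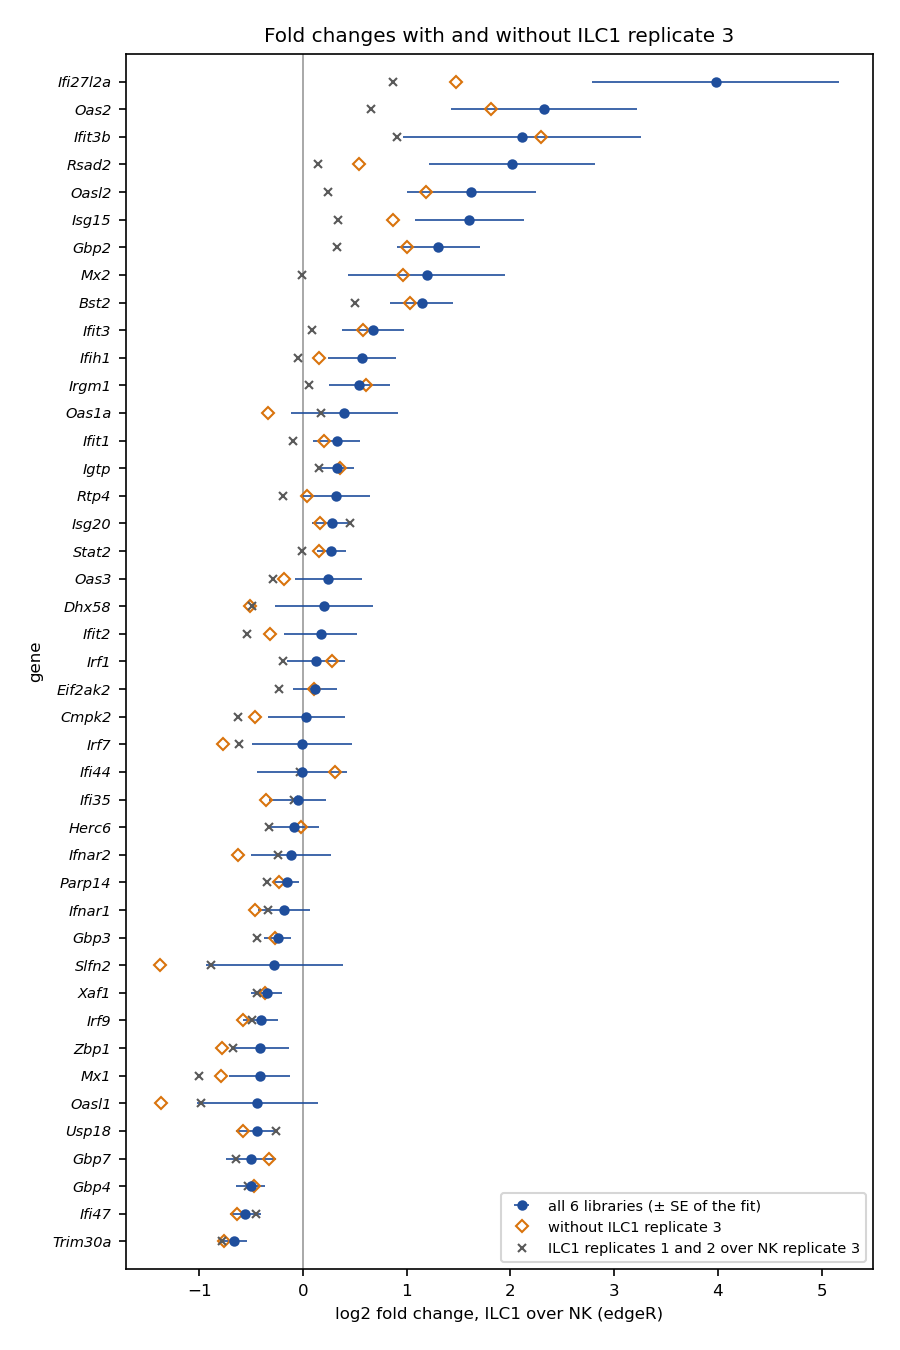
Log2 fold change of each of the 43 genes, ILC1 over NK, from edgeR with all 6 libraries (points, with the SE of the fit), without ILC1 replicate 3 (diamonds) and for ILC1 replicates 1 and 2 over NK replicate 3 (crosses). Trim30a, Gbp4 and Ifi47 lie below 0 in all 3 estimates, while Slfn2, Oasl1 and Irf7 move to lower values without ILC1 replicate 3.

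The rest of the pathway was read from lists of 110 further genes, 88 of which were tested. Of these, 0 passed edgeR's adjusted threshold in either direction, 8 were higher and 18 lower at an unadjusted p under 0.05 (6.95% and 8.82% of all genes), and DESeq2 called 4 higher and 12 lower (2.94% and 4.03% of all genes). Their median log2 fold change was -0.082. Of the 20 interferon ligand genes, Ifng alone passed the filter on low counts, 17 were at 0 in all 6 libraries, and Ifna2 had 1 count in ILC1 replicate 1. Ifnb1, which encodes interferon beta, had 6, 7 and 64 counts in ILC1 replicates 1 to 3, against 0, 0 and 10 counts in NK replicates 1 to 3. Its highest level, 3.71 CPM, was thus in ILC1 replicate 3, and it was not tested because of the filter. Ifng, which encodes interferon gamma, had 104, 97.7 and 34.02 CPM in ILC1s, against 123, 120.5 and 167 CPM in NK cells, with every ILC1 library below every NK library and a log2 fold change of -0.80 ± 0.43 (edgeR adjusted p = 0.422). Without ILC1 replicate 3, the lowest library, it was -0.46.

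Of 6 tested genes for other receptors and Janus kinases, 4 had a log2 fold change below 0 and 2 above. Jak1, the kinase shared by both interferon receptors, had 643, 555 and 524 CPM in ILC1s, against 1359, 1479 and 1025 CPM in NK cells, with no overlap (a log2 fold change of -1.17 ± 0.19, adjusted p of 0.105 by edgeR). Tyk2, the kinase bound to IFNAR1, had 119.8, 104 and 139 CPM in ILC1s, against 213, 219 and 163 CPM in NK cells (a log2 fold change of -0.71 ± 0.18, adjusted p of 0.185 by edgeR). Ifngr1, the ligand-binding chain of the interferon gamma receptor, had 778, 698 and 775 CPM in ILC1s, against 1599, 1500.3 and 1039 CPM in NK cells (a log2 fold change of -0.88 ± 0.20, adjusted p of 0.156 by edgeR). Each of these 3 genes had every ILC1 library below every NK library, and DESeq2 called all 3 lower. In the fit with library sets the log2 fold changes of Jak1, Tyk2 and Ifngr1 were smaller, at -0.78, -0.54 and -0.49. Ifngr2, the second chain of the interferon gamma receptor, named after its values were seen, was the other way round. It had 14.4, 17.4 and 65.5 CPM in ILC1s, against 2.597, 2.05 and 9.18 CPM in NK cells, with every ILC1 library above every NK library. Its log2 fold change was 2.81 ± 0.84 (adjusted p of 0.261 by edgeR), and DESeq2 called it higher (adjusted p = 0.00922). The log2 fold change was 1.76 without ILC1 replicate 3, the library rich in macrophage markers and in H2-Ab1, H2-Aa and Cd74. For Ifngr2 it was 0.80 in the fit with library sets.

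Irf3, the factor that starts interferon transcription, had a log2 fold change of -0.52 ± 0.16 and Irf5 one of 2.04 ± 0.85, the second with 38.7, 34.7 and 265 CPM in ILC1s, against 34.8, 28.6 and 19.2 CPM in NK cells. Socs1, a feedback inhibitor of Janus kinases, had 46.3, 41.4 and 51.6 CPM in ILC1s, against 66.7, 66.97 and 44.9 CPM in NK cells (a log2 fold change of -0.36 ± 0.20, adjusted p of 0.43 by edgeR). Of 11 tested sensing genes the RNA sensor gene Ddx58 (RIG-I) had 97.2, 75.1 and 78.9 CPM in ILC1s, against 146, 131 and 116 CPM in NK cells (a log2 fold change of -0.64 ± 0.16, adjusted p of 0.174 by edgeR). The endosomal RNA receptor gene Tlr7 had 1.45, 1.17 and 22.02 CPM in ILC1s, against 0.699, 0.359 and 1.105 CPM in NK cells, while Tlr3, for double-stranded RNA, had 5.06, 7.11 and 3.77 CPM in ILC1s, against 1.15, 0.976 and 3.603 CPM in NK cells. Tlr7 and Irf5 were thus led by ILC1 replicate 3, with log2 fold changes of 0.83 and 0.41 without it.

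Among 60 tested genes of the list of further interferon-induced genes, 6 were higher and 13 lower at an unadjusted p under 0.05 (6.95% and 8.82% of all genes), and the median was -0.028. The 3 with the smallest p were lower in ILC1s without overlap. Ms4a4b, a tetraspan membrane protein gene of lymphocytes, had 396, 408 and 326 CPM in ILC1s, against 1024, 917 and 698 CPM in NK cells (a log2 fold change of -1.22 ± 0.19, adjusted p of 0.104 by edgeR). Sp100, a nuclear body gene, had 192, 167 and 193 CPM in ILC1s, against 356, 353 and 293 CPM in NK cells (a log2 fold change of -0.86 ± 0.14, adjusted p of 0.106 by edgeR). Gbp5, which promotes inflammasome assembly, had 50.04, 48.5 and 61.2 CPM in ILC1s, against 95.2, 84.5 and 82.2 CPM in NK cells (a log2 fold change of -0.71 ± 0.14, adjusted p of 0.134 by edgeR). DESeq2 called these 3 genes lower. It called Ifi205, Ifi211 and Ube2l6 of the same list higher (DESeq2 adjusted p = 0.00144, 0.00598 and 0.0456). These genes were highest in ILC1 replicate 3, at 55.1, 88.0 and 43.8 CPM. Their log2 fold changes were 4.05, 2.17 and 2.35 with all libraries and 2.27, 1.47 and 1.82 without that library. In the fit with library sets they were 1.39, 0.89 and 0.71. The genes named here as called by DESeq2 were all among its 4 higher and 12 lower calls over the 88 tested pathway genes. None of these differences passed edgeR's adjusted threshold.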

How the data were processed

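The unit of the deposited table is raw counts of reads per gene symbol, made by the authors with HISAT2 2.1.0 and featureCounts 2.0.1 on GRCm38, per the submitters' processing notes. How strand and multi-mapping reads were treated is not given in the sources used here. Library totals ranged from 16931099 to 20224847 counts, so the limit of 3 counts corresponds to 0.144 to 0.174 CPM, which covers counting error only. From these counts, edgeR 4.0.16 (R 4.3.3) applied filterByExpr, TMM scaling, a robust quasi-likelihood fit of both groups and Benjamini-Hochberg adjustment over 14475 genes, with a threshold of 0.05. An exact permutation test of 3 against 3 libraries cannot go below a two-sided p of 0.1. Each log2 fold change is ILC1 over NK, and its SE comes from that fit. Each alternative changed 1 choice at a time, with limma 3.58.1 and DESeq2 1.42.0 among them. The fitting steps were tested on simulated data. Recovery of changed genes was required there only with the spread between libraries capped, so that test does not give the power in these libraries.

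The 43 genes, role groups, pathway lists and markers were chosen with earlier results of these data known. Values in every library were to be given for both receptor chains, the 4 transcription factors, genes with an unadjusted p under 0.05, the 8 highest by mean CPM, the 4 highest and 4 lowest log2 fold changes at 5 CPM or more, and up to 3 genes per pathway list with the smallest p. Other genes with values by library were added after their values were seen. Promoter letters came from RefSeq on GRCm38.p6, and exon lengths and shared stretches from a GENCODE annotation of GRCm38. Each pair of libraries differed beyond sampling noise (chi-square, median over genes 2.42 to 32.0).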

Additional observations from a re-analysis of the deposited data

How the results depend on the processing

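Across all tested genes, the main counts of 11 higher and 1 lower became 47 and 91 with no low-count filter, and 426 and 584 with DESeq2. The replicate block left 0 called in each direction. limma-voom and a minimum mean of 5 CPM each called 2 lower, and library sets as a term, where ILC1 replicates 1 and 2 against NK replicate 3 alone inform the contrast, called 17 lower. NK replicate 3 with ILC1 replicates 1 and 2 alone called 956 and 935, a fit in which the lone NK library is assumed to vary like the ILC1 pair. With each library left out in turn, these counts ranged from 0 to 250 higher and 0 to 199 lower, both highest without NK replicate 3. Of the 43 interferon genes, none was called in the main test, DESeq2 called 3 higher and 3 lower, the 3-library fit called 2 higher and 11 lower, and leaving out 1 library gave 0 to 2 higher. Their median log2 fold change was -0.19 with library sets as a term, -0.23 in the 3-library fit, and -0.19 to 0.27 with 1 library left out. The sign turned for Irf7 (0.020 with RLE and with DESeq2, 0.044 with no filter), Irf1 (-0.15 with library sets, -0.19 in the 3-library fit) and Stat2 (-0.0081 in the 3-library fit). With 1 library left out, log2 fold changes ranged from -0.63 to 0.10 for Ifnar2, -0.77 to 0.27 for Irf7, -0.014 to 0.43 for Irf1 and -1.38 to 0.091 for Slfn2. The cause was not tested. Whether the replicate numbers pair the samples is not known, because the labels do not give the mouse behind each library. Same-numbered libraries deviated with correlations of -0.37, -0.37 and -0.51. These values cannot settle it, since the libraries also differ in genes of other cells. With the replicate block the median of the 43 genes was 0.074.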
